A study of Rattus norvegicus with 18 samples.

Results

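ATP-sensitive potassium (KATP) channels open when cellular ATP falls and close when it is plentiful, and so tie the membrane potential to the metabolic state of the cell. Each channel is built from pore subunits of the Kir6 family and regulatory sulfonylurea receptors, which bind nucleotides and the drugs that open or block the channel. Kcnj8 encodes the pore subunit Kir6.1 and Kcnj11 the pore subunit Kir6.2, while Abcc9 encodes the receptor SUR2 and Abcc8 the receptor SUR1. Kir6.2 is the pore of the sarcolemmal channel of heart ventricle, where SUR2 is its usual partner. Kir6.1 is best known from the KATP channels of vascular smooth muscle and pericytes, also with SUR2. These 4 genes are 4 of the 12198 genes named on the larger of the array designs used, and all probes were taken that carried one of these symbols in the platform annotation. That gave 7 probes on the larger design (2 each for Kcnj8, Abcc9 and Kcnj11, and 1 for Abcc8) and 3 on the smaller (1 each for Kcnj8, Abcc9 and Kcnj11). Kcnj8 was chosen by its measured difference between conditioned and unconditioned medium on the larger design, and the other 3 genes as its family. That contrast is therefore given as a description, without a test.

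The cells were neonatal rat cardiomyocytes from day 1 ventricles (n = 24), separated on Percoll gradients and kept for 24 h in cardiac medium. RNA from 6 samples was taken at that point, called time zero. In the other 12 samples 50% of the medium was replaced, either with unconditioned hESC medium or with the same medium conditioned by stem cells, and RNA was taken 24 h or 48 h later, with FBS at 5% and HS at 10% throughout. On the larger design, with 12 arrays, time zero has 4 and every medium and time 2; on the smaller one, with 6, time zero has 2 and every medium and time 1. The labels name neither strain nor genotype, and they do not tell whether samples came from separate preparations. The p-values therefore reflect only how much arrays of a group vary, and that variation may be technical. Cultures were measured in bulk, where fewer cells of a type and less RNA per cell cannot be told apart.

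Values are intensities scaled so that every array of a design has the same median, 96.8 for the larger and 287.2 for the smaller. Before taking log2, values were raised to a floor of 4.84 on the larger and 14.4 on the smaller design, and a value at or under it is called at the floor. Array medians ran from 70.3 to 143.6 before scaling for the larger design, and from 213.8 to 415.7 for the smaller. On the larger design 3 arrays stood apart, with an upper-to-lower quartile ratio of intensity of 22.4 to 25.7 against 38.7 to 47.8 on the others. They are unconditioned 48 h replicate 2 and, at time zero, replicates 4 and 5. The differences of the 4 genes from time zero, between media and between times that these arrays touch are also given without them. For related lists, only some of the calls of the fit without these arrays are given. In that fit unconditioned 48 h keeps 1 array, which is assumed to vary like the other groups. Cardiomyocyte markers were high throughout: of 16 listed, 14 were on the larger design and all 14 were tested, and their summed intensity was between 205533 and 422896 on every array.

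In the RefSeq annotation of assembly GRCr8, the genes lie as adjacent pairs of a pore and a receptor gene. Kcnj8 and Abcc9 are on chromosome 4 with 0 annotated genes between them, and Kcnj11 and Abcc8 are on chromosome 1, also with 0 between them. The 250 bases before the start site of Kcnj8 (chr4:177246549-177246798) and of Abcc9 (chr4:177386349-177386598), both on the minus strand, are shown so that these neighbours can be compared. They are printed 5′ to 3′ in the direction of transcription, from RefSeq, and the capitals mark the Sp1 motif GGGCGG read on the other strand.
Kcnj8: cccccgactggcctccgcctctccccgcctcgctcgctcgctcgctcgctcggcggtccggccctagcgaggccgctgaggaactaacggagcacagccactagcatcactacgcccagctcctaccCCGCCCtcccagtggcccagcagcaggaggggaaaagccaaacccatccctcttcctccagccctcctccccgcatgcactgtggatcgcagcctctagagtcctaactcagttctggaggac
Abcc9: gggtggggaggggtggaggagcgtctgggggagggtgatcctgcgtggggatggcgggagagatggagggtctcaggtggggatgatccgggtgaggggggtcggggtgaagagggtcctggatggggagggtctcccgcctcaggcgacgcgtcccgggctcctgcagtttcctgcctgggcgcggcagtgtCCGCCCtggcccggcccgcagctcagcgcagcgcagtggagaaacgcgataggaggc

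Over 300 bases, the window that runs on past the start site, GC content was 67% for Kcnj8 and 69% for Abcc9, against a median of 51.7% over the 33469 rat promoter windows of the same length. These windows held 23 and 21 CpG pairs, against a median of 7. Each holds 1 match to the Sp1 motif GGGCGG on either strand, at base -123 of Kcnj8 and -57 of Abcc9, and 33.1% of all windows hold such a match. The E-box motif CANNTG has 0 matches in the Kcnj8 window and 2 in that of Abcc9, and 72.1% of all windows hold one. A match to the MEF2 consensus lies 22 bases past the Abcc9 start and none in the Kcnj8 window (3.29% of all windows). TTCNNNGAA, the STAT motif, is absent from these letters in both windows (8.87% of all windows hold it), as are ACGTG, the core of the hypoxia response element (19.3%), GTAAACA, the FoxO motif (3.78%) and TATAAA (14.2%). These matches describe letters only, and binding was not measured.

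Kcnj8, the Kir6.1 pore, lay near or at the floor in time zero and unconditioned cultures and well above it in conditioned ones. At time zero probe 144022 read 13.2, 19.6, 2.37 and 1.53, the last 2 at the floor. In unconditioned medium it read 10.9 and 3.28 at 24 h, and 24.1 and a value at the floor at 48 h. In conditioned medium it read 645.0 and 773.0 at 24 h and 333.7 and 299.2 at 48 h. All 4 conditioned arrays were therefore above the other 8, and the lowest of them was far from the highest of the rest.

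The second Kcnj8 probe, 238094, had its conditioned groups in the same order, and time zero spread more widely. It read 8.26, 21.6, 72.9 and 4.82 at time zero, the highest on replicate 5, which is among the 3 arrays that stood apart. In unconditioned medium it read 7.13 and a value at the floor at 24 h, and 33.5 and a value at the floor at 48 h. In conditioned medium it read 442.4 and 419.6 at 24 h and 215.6 and 193.5 at 48 h. Both Kcnj8 probes were highest at 24 h in conditioned medium and second highest at 48 h, while the 3 groups without conditioned medium overlapped one another. Each conditioned group has 2 arrays, and the order of these 2 times is a description only. Over the 12 arrays the log2 values of the 2 probes correlated with r = 0.82.

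In rank within an array, Kcnj8 probe 144022 lay between percentiles 9.52 and 32.7 of all probes on the 8 arrays without conditioned medium, 4 of them at the floor. It lay between percentiles 66.6 and 80.0 on the 4 conditioned arrays. Probe 238094 lay between percentiles 11.3 and 45.0 on the 8 arrays, 3 of them at the floor, and between percentiles 60.1 and 72.8 on the 4. Neither probe would have passed the filter on level, which left out probes with a mean in the lowest 30%, from the 8 arrays alone. The probes were thus tested only because of the conditioned arrays.

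Differences are on the log2 scale ± SE, relative to the median of all probes in the same comparison. Between conditioned and unconditioned medium over both times, the choice of Kcnj8 rests on a difference of 5.02 ± 0.77 for probe 238094 and 5.65 ± 0.65 for probe 144022 (4 arrays against 4). By time, probe 144022 differed by 6.59 ± 0.92 at 24 h and 4.69 ± 0.92 at 48 h, and probe 238094 by 6.19 ± 1.09 and 3.83 ± 1.09. The 48 h values rest on 2 unconditioned arrays, of which 1 is at the floor for each probe and replicate 2 is among the 3 that stood apart. Without unconditioned 48 h replicate 2 the 48 h difference was 3.77 for probe 144022 and 5.46 for probe 238094, and without replicate 3 it was 5.59 and 2.17. Without the 3 arrays that stood apart, the difference over both times was 5.82 for probe 238094 and 5.18 for probe 144022. Across all 23694 probes tested, 0.920% passed an adjusted p of 0.05 in this comparison. These sizes depend on the treatment of values near background: for probe 238094 the difference was 3.67 with a floor at 0.2 of the median and 2.55 with a pseudocount of 0.5 of the median. Against time zero, likewise without a test, probe 144022 was 6.14 ± 0.79 higher at 24 h and 5.00 ± 0.79 higher at 48 h in conditioned medium, and -0.47 ± 0.79 and 0.28 ± 0.79 away in unconditioned medium. With the 3 arrays left out, these values were 6.48 and 5.34 in conditioned medium and -0.089 and 1.60 in unconditioned medium. Probe 238094 differed from time zero by 4.58 ± 0.94 and 3.53 ± 0.94 in conditioned and by -1.62 ± 0.94 and -0.33 ± 0.94 in unconditioned medium. In the fit without those 3 arrays, those were 6.11 and 5.05, and -0.060 and -0.38. With single arrays left out, the unconditioned 48 h values ran from -0.68 to 1.23 (probe 144022) and from -1.93 to 1.27 (probe 238094), on both sides of 0.

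**Figure D1:**
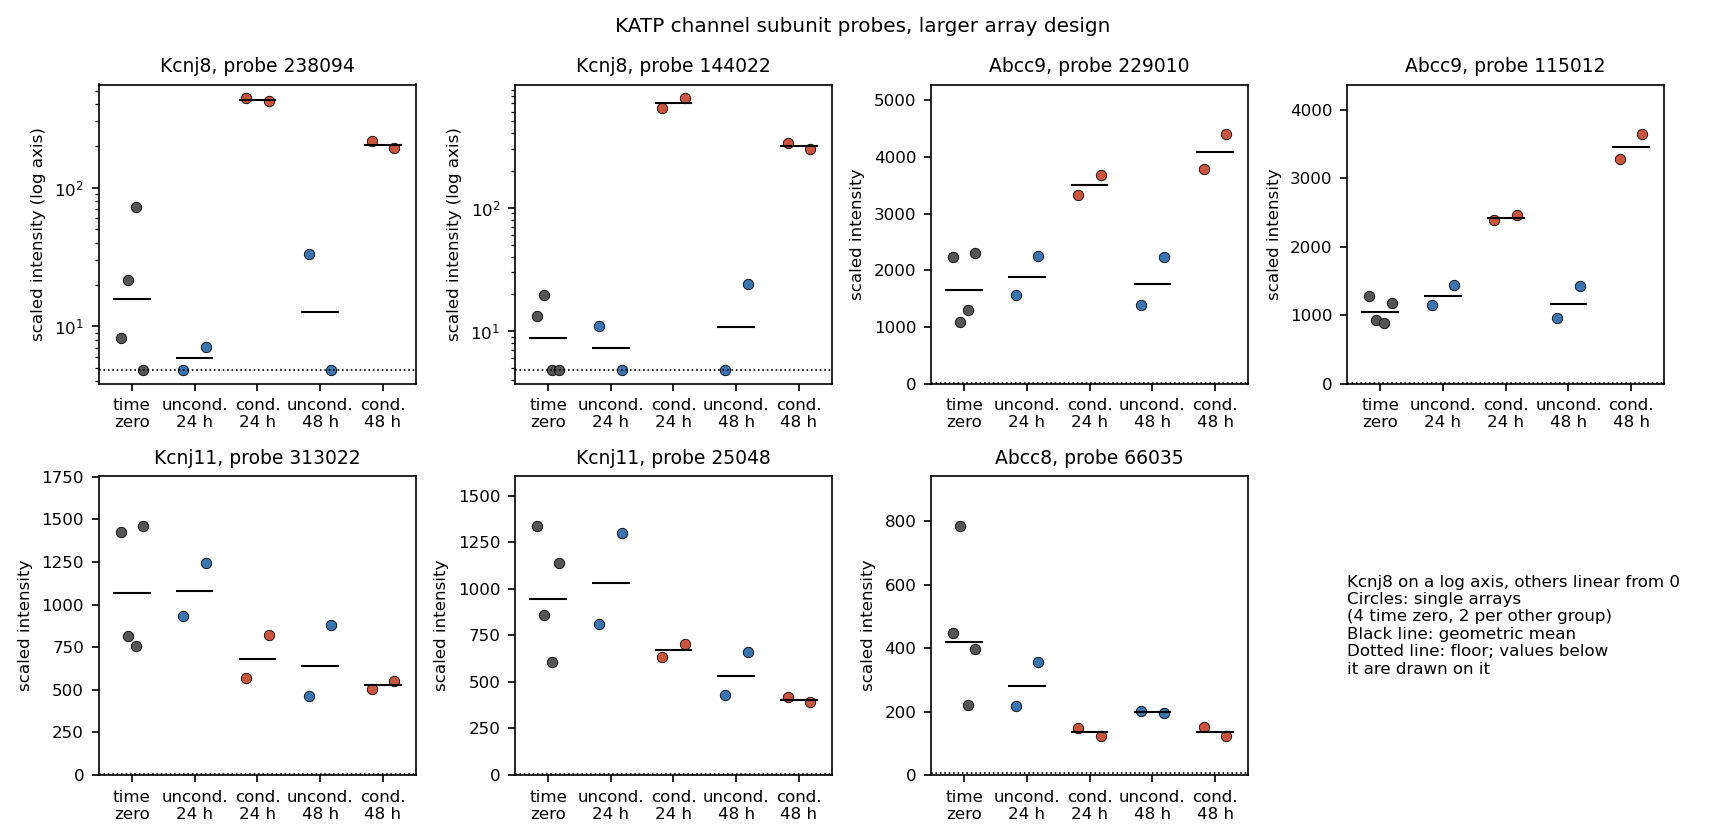
Scaled intensity of the 7 KATP subunit probes on the 12 arrays of the larger design, 1 panel a probe, by group on the x axis. Circles are arrays, black lines geometric means and dotted lines the floor of 4.84; the Kcnj8 panels have a log axis and the others start at 0. The conditioned arrays of Kcnj8 sit between 193.5 and 773.0 and those of the other groups at 72.9 or less, Abcc9 is highest in conditioned medium, and Abcc8 is lowest there.

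Abcc9, the SUR2 receptor gene next to Kcnj8, had intensities far above the floor on every array and was higher still in conditioned medium. Probe 115012 read 1277, 927, 883 and 1171 at time zero. In unconditioned medium it read 1148 and 1443 at 24 h and 956 and 1429 at 48 h, within or close to the time zero range. In conditioned medium it read 2386 and 2466 at 24 h and 3291 and 3646 at 48 h, so that the 4 conditioned arrays lay above the other 8.

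Against time zero this probe of Abcc9 rose by 1.02 ± 0.30 at 24 h (limma adjusted p = 0.0322) and by 1.56 ± 0.30 at 48 h (adjusted p = 0.00145) in conditioned medium. In unconditioned medium its differences were 0.10 ± 0.30 (adjusted p = 0.793) and 0.14 ± 0.30 (adjusted p = 0.914), or 0.12 and 0.23 without the 3 arrays that stood apart. Without those arrays the conditioned changes were 1.01 (adjusted p = 0.00412) and 1.54 (adjusted p = 1.76e-04). The 24 h call ended when 1 of 7 arrays was left out, most clearly conditioned 24 h replicate 3 (adjusted p = 0.393) or replicate 2 (0.336); without time zero replicate 5, or any 1 of the unconditioned 24 h or conditioned 48 h arrays, adjusted p was 0.0524 to 0.0796. The 48 h call ended without conditioned 48 h replicate 3 (adjusted p = 0.0638).

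The other Abcc9 probe, 229010, moved in the same direction with wider spread. It read 2229, 1092, 1300.4 and 2310.0 at time zero, with the 2 lower values on the arrays that stood apart. Unconditioned arrays read 1562 and 2247 at 24 h and 1378 and 2227 at 48 h. Conditioned arrays read 3327 and 3688 at 24 h and 3788 and 4398 at 48 h, again above all of the other 8. In conditioned medium its difference from time zero was 0.91 ± 0.35 at 24 h, which did not pass (adjusted p = 0.118), and it rose by 1.15 ± 0.35 at 48 h (adjusted p = 0.0330). In unconditioned medium it differed from time zero by 0.00 ± 0.35 and 0.08 ± 0.35. When the 3 arrays were left out, the conditioned values were 0.65 (adjusted p = 0.0675) and 0.88 (adjusted p = 0.0123), and the unconditioned ones -0.23 and -0.022. The 48 h call ended without conditioned 48 h replicate 3 (adjusted p = 0.363) or 2 (0.211), time zero replicate 5 (0.0881) or either conditioned 24 h replicate (0.0572 and 0.0578).

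Kcnj11, the Kir6.2 pore of the ventricular channel, had its lowest group means at 48 h in conditioned medium, and its conditioned and unconditioned arrays overlapped on the larger design. Probe 25048 read 1339, 860.1, 605 and 1140.4 at time zero. It read 813 and 1302 at 24 h and 432 and 659.7 at 48 h in unconditioned medium, and 637 and 706 at 24 h and 418 and 391 at 48 h in conditioned medium. The 2 conditioned 48 h arrays were the lowest of the 12.

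That probe of Kcnj11 fell by 1.39 ± 0.35 between time zero and conditioned 48 h (a change of -1.39, limma adjusted p = 0.0418). Its differences at conditioned 24 h (-0.68 ± 0.35, adjusted p = 0.554), unconditioned 24 h (-0.06 ± 0.35, adjusted p = 0.926) and unconditioned 48 h (-0.83 ± 0.35, adjusted p = 0.288) did not pass. Without the 3 arrays that stood apart, the changes in conditioned medium were -0.86 at 24 h (adjusted p = 0.0292) and -1.58 at 48 h (adjusted p = 6.33e-04), and the unconditioned differences -0.22 and -0.90. The 48 h call ended without conditioned 48 h replicate 3 (adjusted p = 0.367) or 2 (0.279), and also without time zero replicate 3 or 6 or any 1 of the 24 h arrays (0.0522 to 0.0871).

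Probe 313022 of Kcnj11 read 1427, 816, 759.8 and 1462 at time zero, then 935 and 1245 after 24 h without and 566 and 819 with conditioned medium. By 48 h it read 465 and 883 without and 503 and 551 with conditioned medium. The lowest of the 12 arrays was unconditioned 48 h replicate 2, one of those that stood apart. None of its differences from time zero passed: they were -0.17 and -0.75 (± 0.36) in unconditioned medium at 24 h and 48 h, and -0.83 and -1.18 in conditioned medium (adjusted p = 0.425 and 0.110). With the 3 arrays left out, the conditioned changes were -1.07 at 24 h (adjusted p = 0.00826) and -1.42 at 48 h (adjusted p = 9.62e-04), and the unconditioned differences -0.37 and -0.71. The log2 values of the 2 Kcnj11 probes correlated with r = 0.94 over the 12 arrays, and those of the 2 Abcc9 probes with r = 0.95.

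Abcc8, the SUR1 receptor gene next to Kcnj11, was lowest in conditioned medium. Its single probe, 66035, read 448, 786, 222 and 398 at time zero. Unconditioned arrays read 219 and 357 at 24 h and 203 and 195 at 48 h, and conditioned arrays read 149 and 124 at 24 h and 152 and 122 at 48 h. The 4 conditioned arrays lay below the other 8, and the time zero arrays spread most.

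Relative to time zero Abcc8 fell by 1.81 ± 0.40 at 24 h (a change of -1.81, limma adjusted p = 0.0327) and by 1.79 ± 0.40 at 48 h (-1.79, adjusted p = 0.0197) in conditioned medium. In unconditioned medium its differences were -0.78 ± 0.40 (adjusted p = 0.687) and -1.09 ± 0.40 (adjusted p = 0.205). In the fit without those 3 arrays, the conditioned changes were -1.61 (adjusted p = 0.00255) and -1.60 (adjusted p = 0.00167), and the unconditioned differences -0.55 and -1.11. The 24 h call ended without conditioned 24 h replicate 3 (adjusted p = 0.407) or 2 (0.222), time zero replicate 3 (0.0698) or either conditioned 48 h replicate (0.0507 and 0.0508). The 48 h call ended without conditioned 48 h replicate 3 (0.278) or 2 (0.128).

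Of the 5 probes of Abcc9, Kcnj11 and Abcc8, 2 passed against time zero in conditioned medium at 24 h (1 higher, 1 lower) and 4 at 48 h (2 higher, 2 lower). Over all probes 3.17% passed at 24 h (2.57% higher, 0.599% lower) and 6.47% at 48 h (5.39% higher, 1.07% lower). In unconditioned medium 0 of the 5 passed at 24 h, where 0.815% of all probes did, and 0 at 48 h, where 2.90% did. Of these 5 probes 0 and 2 (Kcnj11 probe 25048 and Abcc8) had an unadjusted limma p under 0.05 there, as did 2341 and 3187 of all 23694 probes. The 4 comparisons share the time zero arrays. The call tests the change before the median of all probes is subtracted, and that median was 0.19 and 0.01 in unconditioned and 0.18 and 0.16 in conditioned medium at 24 h and 48 h. With other scalings the calls for Kcnj11 grew: with quantile normalization, 5 of 5 probes passed at conditioned 24 h and at conditioned 48 h, and both Kcnj11 probes passed as lower at unconditioned 48 h. With no filter on level, Abcc9 probe 115012 alone passed at either time in conditioned medium, and with no intensity trend it passed alone at 48 h, with 0 of 5 at 24 h. A pseudocount of 0.5 of the median ended the 48 h call of Kcnj11 probe 25048 (adjusted p = 0.0507).

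**Figure D2:**
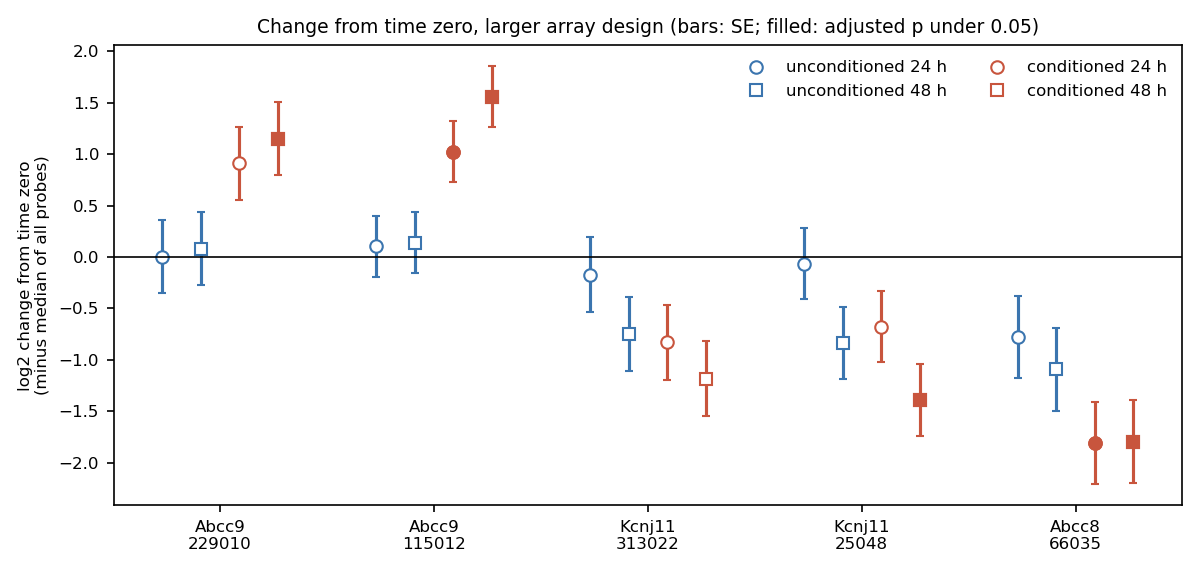
Log2 change from time zero for the 5 probes of Abcc9, Kcnj11 and Abcc8 on the larger design, relative to the median of all probes, with bars of 1 SE; blue is unconditioned and red conditioned medium, circles are 24 h and squares 48 h, and filled symbols passed an adjusted p of 0.05. Abcc9 lies up to 1.56 above and Abcc8 down to -1.81 below the line in conditioned medium, while no unconditioned symbol is filled.

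Between media on the larger design, Abcc9 differed by 0.98 ± 0.29 (probe 229010) and 1.16 ± 0.24 (probe 115012) over both times, Kcnj11 by -0.56 ± 0.30 (probe 313022) and -0.60 ± 0.28 (probe 25048) and Abcc8 by -0.88 ± 0.33. When the 3 arrays were left out, they were 0.91 and 1.12, -0.68 and -0.64, and -0.76. These are given as descriptions, since this contrast chose the group of genes. All 4 probes of Kcnj8 and Abcc9 had their 4 conditioned arrays above the other 8, as did 4.72% of all probes, and the Abcc8 probe had them below, as did 0.840%. Neither Kcnj11 probe had such a separation. At 24 h the array medians before scaling were 71.2 and 70.3 in unconditioned and 97.6 and 93.9 in conditioned medium. The sizes of these differences therefore depend on the scaling. Unscaled at 24 h, Kcnj11 probe 25048 read 598 and 945 in unconditioned against 642 and 684 in conditioned medium. Likewise, probe 313022 read 687 and 903 against 571 and 794, and Abcc8 read 161 and 259 against 151 and 120.

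The 6 arrays of the smaller design were not used to choose Kcnj8, although the sign of its difference there was known. Probe 9146 of Kcnj8 read 11.6 and 19.5 at time zero, 19.8 at 24 h and 9.65 at 48 h in unconditioned medium, and 425 at 24 h and 255 at 48 h in conditioned medium. Both conditioned arrays thus lay above the other 4, of which 2 were at the floor, and 24 h was again higher than 48 h. A common medium effect over both times, from a fit with no filter and 2 residual degrees of freedom, was 4.61 ± 0.21 relative to the median of the probes above the filter. With its mean at percentile 26.3, the probe was under the filter and has no adjusted p in the fit with the filter. Relative to the median of all probes with no filter the effect was 4.37. It passed in that fit (limma adjusted p = 0.0356), as did 1.43% of all probes in the same direction. The size depends on the treatment of low values, and was 1.84 with a pseudocount of 0.5 of the median.

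Abcc9 and Kcnj11 had their differences in the same directions on the smaller design. Abcc9 probe 19029 read 1876 and 2322 at time zero, 1761 and 2274 in unconditioned and 3392 and 3686 in conditioned medium at 24 h and 48 h. Its medium effect was 1.15 ± 0.21 and did not pass (adjusted p = 0.0763), although it did with quantile normalization (adjusted p = 0.0291). Kcnj11 probe 12324 read 1547 and 2194 at time zero, 1456 and 1130.4 in unconditioned and 653 and 444 in conditioned medium. Its effect was -0.93 ± 0.25 (adjusted p = 0.0611), which passed with array weights (adjusted p = 0.00890). At both times on this design, scaling lowered the values of the conditioned arrays and raised those of the unconditioned ones. Before scaling, Kcnj11 read 1084 and 952 in unconditioned and 857 and 642 in conditioned medium at 24 h and 48 h. Abcc9 read 1311 and 1916 against 4450 and 5335. The size of each difference therefore depends on the scaling. Of the 6934 probes tested there, 2.25% passed. Kcnj11 separated the 2 conditioned arrays from the other 4, below them, as did 38.7% of all probes, while 9.24% had both above, as Abcc9 and Kcnj8 did. The median of all probes was -0.32 in this comparison, and no Abcc8 probe is on this design.

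**Figure D3:**
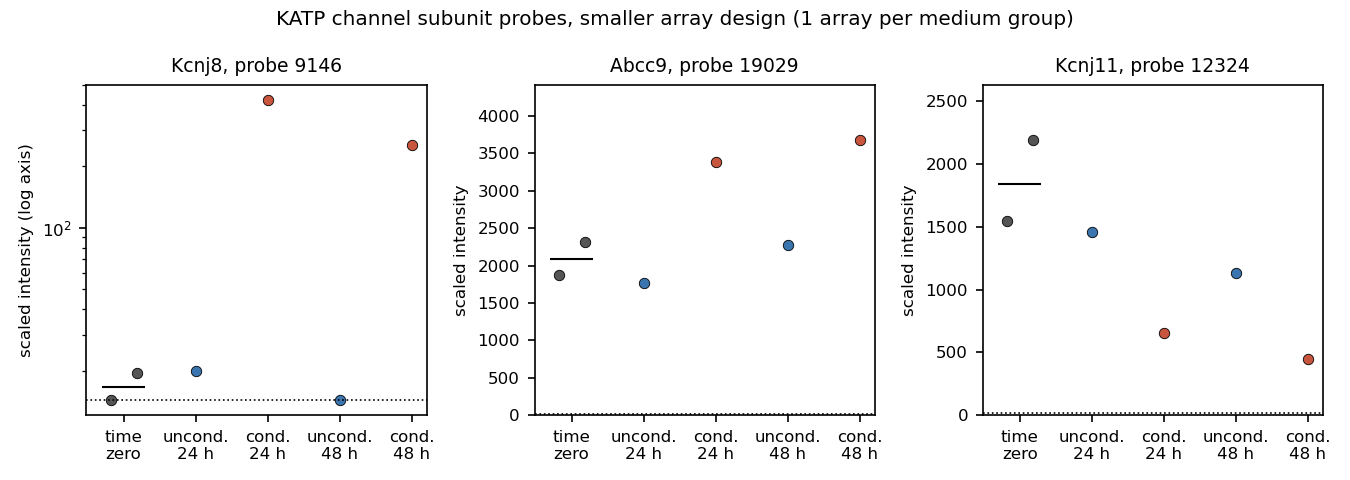
Scaled intensity of the 3 KATP subunit probes on the 6 arrays of the smaller design, by group on the x axis, with Kcnj8 on a log axis and the others from 0. Circles are arrays, black lines the geometric mean of the 2 time zero arrays and dotted lines the floor of 14.4. Kcnj8 reads 425 and 255 on the conditioned arrays and at most 19.8 on the others, Abcc9 is higher and Kcnj11 lower in conditioned medium at both times.

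Between 24 h and 48 h in conditioned medium, Kcnj8 changed by -1.15 ± 0.92 (probe 144022) and -1.07 ± 1.09 (probe 238094) in the fit of all 12 arrays. For Kcnj8 no test is read here or in the next paragraph, since its probes passed the filter on level only through the conditioned arrays. In a fit of only the 4 conditioned arrays, Abcc9 probe 115012 (0.52 higher, adjusted p = 0.0347) and Kcnj11 probe 25048 (-0.72, adjusted p = 0.0125) passed. That fit called 1425 probes against 1 with all arrays. Of all probes 0.00422% passed in the fit of all arrays, and 598 had an unadjusted p under 0.05, with no probe of Abcc9, Kcnj11 or Abcc8 among them. Abcc8 differed by 0.00 ± 0.46 between the times.

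In unconditioned medium no probe of Abcc9, Kcnj11 or Abcc8 and 0% of all probes passed between 24 h and 48 h. At an unadjusted p under 0.05 were 1234 probes, Kcnj11 probe 25048 among them. The Kcnj8 probes differed by 1.30 ± 1.09 and 0.75 ± 0.92, on values at or near the floor, and those of Kcnj11 by -0.57 ± 0.42 (probe 313022) and -0.77 ± 0.40 (probe 25048). Without the 3 arrays the Kcnj8 values were -0.33 (probe 238094) and 1.67 (probe 144022), and those of Kcnj11 -0.34 and -0.70. Tested as an interaction, the medium effect differed by time for 0 probes (0% of all) with limma. At an unadjusted p under 0.05 there were 518, with no probe of Abcc9, Kcnj11 or Abcc8 among them. For Kcnj8 that difference was -2.37 ± 1.54 (probe 238094) and -1.91 ± 1.30 (probe 144022), for Abcc9 0.14 ± 0.58 and 0.47 ± 0.48, for Kcnj11 0.20 ± 0.59 and 0.03 ± 0.57 and for Abcc8 0.30 ± 0.65. With the 3 arrays left out, the Kcnj8 values were -0.74 and -2.83, so that the order of its probes turned, and with single arrays left out they ran from -4.03 to -0.73 and from -2.83 to -1.02. Those of Abcc9 were 0.033 and 0.43, those of Kcnj11 -0.020 and -0.027 and that of Abcc8 0.58. The number of arrays limits the precision of each of these.

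Likeness was measured as Pearson's r of log2 values over the 12 arrays, each gene by its probe with the highest mean, among 9952 genes. All pairs share the arrays and their scaling, so r is a description. Kcnj8 was represented by probe 238094, which was at the floor on 3 of the 12 arrays. The r of that probe with the other Kcnj8 probe was 0.82, and the ranking was not repeated with the other probe. Nearest to Kcnj8 were Pik3r6, a regulatory subunit of phosphoinositide 3-kinase gamma (r = 0.90), Osmr, the oncostatin M receptor subunit (0.85), the transcriptional repressor Bhlhe41 (0.84), the metalloreductase Steap4 (0.84), the prostaglandin E synthase Ptges (0.83), the angiotensin-converting enzyme Ace (0.82), C1qtnf5 (0.81) and Tmem176a (0.81). Its neighbour Abcc9 ranked 312 with r = 0.55, while Abcc8 had r = -0.65 and Kcnj11 r = -0.71. Nearest to Abcc9 were Efs, an adaptor of Src family kinases (0.98), the ubiquitin ligase Marchf3 (0.98), the serum and glucocorticoid regulated kinase Sgk1 (0.97) and the calmodulin-dependent kinase Camk1 (0.97). Kcnj11 was nearest to Kmt5c, Neurl2, Mul1 (each 0.96) and Tmem51 (0.95), and had r = 0.62 with Abcc8. Abcc8 was nearest to Sema6d (0.97), Pcp4l1 (0.95), Lrrc27 (0.93) and Perm1, a regulator of muscle energy metabolism (0.92).

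Other inward rectifiers, the wider family of the Kir pores, gave 0 calls in any of these comparisons with all 12 arrays of the larger design. Of 13 listed, 11 were on the array and 6 were tested, and Kcnj9, Kcnj15 and Kcnj16 were at the floor on 11, 8 and 9 of the 12 arrays. The median change of the 6 from time zero was 0.20 and 0.78 in unconditioned and -0.07 and -0.01 in conditioned medium at 24 h and 48 h, with 0 for all probes. Kcnj5, a subunit of the acetylcholine-gated channel of the atrium, was 1.17 ± 0.35 and 1.17 ± 0.35 above time zero in unconditioned (adjusted p = 0.0990 and 0.0943) and 1.07 and 1.03 above in conditioned medium (adjusted p = 0.0671 and 0.0537). In the fit without those 3 arrays, Kcnj5 passed in all 4 of these comparisons (1.06, 1.32, 0.92 and 0.88, adjusted p from 0.0155 to 0.0393) and Kcnj12, an inward rectifier of heart muscle, passed at conditioned 48 h (1.00, adjusted p = 0.0307).

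Relatives of the sulfonylurea receptors in ABC subfamily C, mostly organic anion exporters, had 7 of 9 listed genes tested. Abcc3, an exporter of bile acids and glucuronides, fell in conditioned medium at 24 h (-1.50 ± 0.34, limma adjusted p = 0.0389) and 48 h (-1.78 ± 0.34, adjusted p = 0.00644) and in unconditioned medium at 48 h (-1.66 ± 0.34, adjusted p = 0.00994). When the 3 arrays were left out, these changes were -1.67, -1.95 and -1.82, and the difference at unconditioned 24 h was -0.82. No other member of that list passed in any comparison with all arrays, and its median was -0.11 and -0.30 in unconditioned and -0.32 and -0.39 in conditioned medium.

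Among 20 genes of KATP partners and energy sensing, 16 were on the array and 15 tested. Ckm, the muscle creatine kinase that passes phosphate between ATP and creatine near the channel, fell in conditioned medium by 1.70 ± 0.30 at 24 h (-1.70, adjusted p = 0.00780) and by 2.03 ± 0.30 at 48 h (-2.03, adjusted p = 8.08e-04), and in unconditioned medium at 48 h (-1.52 ± 0.30, adjusted p = 0.00906). Cav1, the coat protein of caveolae, rose by 1.12 ± 0.33 (adjusted p = 0.0359) and 2.02 ± 0.33 (adjusted p = 4.14e-04) in conditioned medium and by 1.66 ± 0.33 in unconditioned medium at 48 h (adjusted p = 0.00730). Ehd2, which sits at the neck of caveolae, rose by 1.12 ± 0.35 in conditioned medium at 48 h (adjusted p = 0.0332). That is 1 higher and 1 lower of 15 at conditioned 24 h and at unconditioned 48 h, and 2 higher and 1 lower at conditioned 48 h, with 0 at unconditioned 24 h, beside 3.17%, 2.90%, 6.47% and 0.815% of all probes. The medians of the list were 0.41 and 0.12 in unconditioned and 0.19 and 0.21 in conditioned medium, and between media over both times 0 of the 15 passed. Without the 3 arrays the called changes of Ckm were -1.72, -2.06 and -1.57, those of Cav1 0.94, 1.85 and 1.56 and that of Ehd2 0.93, each passing. Then 1 higher of 15 passed at unconditioned 24 h, 1 higher and 1 lower at conditioned 24 h, 3 and 1 at unconditioned 48 h and 2 and 2 at conditioned 48 h. Between media over both times Hif1a (0.95, adjusted p = 0.0247) and Foxo3 (0.68, adjusted p = 0.0272) then passed as higher and Ckm as lower (-0.72, adjusted p = 0.0283).

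**Figure D4:**
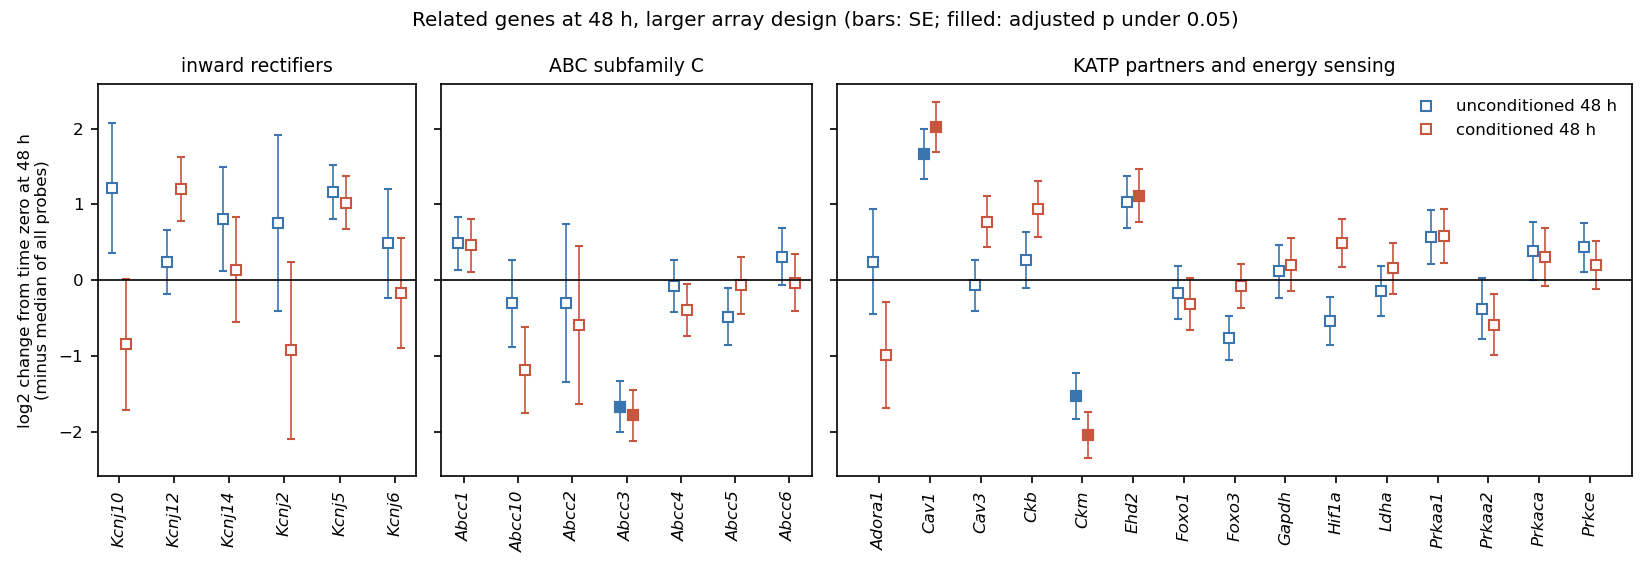
Log2 change from time zero at 48 h, relative to the median of all probes, for the tested genes of 3 lists (inward rectifiers, ABC subfamily C, and KATP partners and energy sensing) on the larger design, with bars of 1 SE. Blue squares are unconditioned and red squares conditioned medium, and filled squares passed an adjusted p of 0.05. Abcc3 and Ckm are filled below the line and Cav1 above it in both media, and Ehd2 is filled above it in conditioned medium only, where its value of 1.12 stands beside 1.03 in unconditioned medium.

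Because Kir6.1 is best known from mural cells of vessels, markers of pericytes and smooth muscle were read beside Kcnj8. All 12 listed were on the larger design and 9 were tested, and between media over both times 0 of the 9 passed, 3 lay above the median of all probes and their median was -0.19. The pericyte genes Rgs5 and Ndufa4l2 were at the floor on 9 and 10 of the 12 arrays. Summed over the list, intensity ran from 22342 to 38755 at time zero, from 56071 to 61666 and from 37807 to 52353 in unconditioned medium at 24 h and 48 h, and from 40196 to 42879 (24 h) and from 52733 to 55266 (48 h) with conditioned medium. With the 3 arrays left out, 2 of the 9 passed between media, both lower in conditioned medium, the smooth muscle genes Myh11 (-1.04, adjusted p = 0.00392) and Cnn1 (-0.90, adjusted p = 0.00284). The sums overlap between media at neither time, being lower with conditioned medium at 24 h and higher at 48 h. The separation at 24 h depends on the scaling, since array medians before it were 71.2 and 70.3 in unconditioned and 97.6 and 93.9 in conditioned medium. At 48 h the lower unconditioned sum, 37807, is that of replicate 2, one of the 3 arrays that stood apart. The other, 52353, is close to the lower conditioned sum of 52733. The brightest genes, Acta2 (median 21819) and Tagln (8424), weigh most in these sums. Against time zero, Cspg4, the proteoglycan NG2, rose in both media (1.95 and 2.13 in unconditioned, 2.19 and 2.44 in conditioned medium, each ± 0.41, adjusted p from 6.92e-04 to 0.0160). Cnn1, a smooth muscle calponin, rose at 48 h in both (1.44 and 1.23), Myh11 in unconditioned (1.57) and Tagln in conditioned medium (1.04); each passed there without the 3 arrays too. In that fit Cnn1 was also lower than time zero at conditioned 24 h (-0.97, adjusted p = 0.00444), and Acta2 (1.08, adjusted p = 0.0499) and Tagln (0.98, adjusted p = 0.0128) passed as higher at unconditioned 24 h.

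Markers of other cells also moved with culture. Of 8 tested endothelial genes 4 rose and 1 fell at unconditioned 48 h, and 5 rose and 1 fell at conditioned 48 h, among them Tek (2.91 and 2.65), Vwf (2.28 and 2.49) and Kdr, which fell (-2.15 and -1.66), beside 2.90% and 6.47% of all probes. In the fit without those 3 arrays, these counts were the same, and 0 of the 8 passed between media with or without them. Between media 1 of 7 fibroblast genes passed, Fn1 (1.61 ± 0.26, adjusted p = 0.00242), and 1 of 6 leukocyte genes, Cd74, which was lower (adjusted p = 0.00140), beside 0.920% of all probes. Cd74 was at the floor on 3 of the 4 conditioned arrays and at 51.0 to 85.7 on the unconditioned ones, so the size of its difference, -3.79, depends on the floor. When the 3 arrays were left out, Fn1 (1.61) and Cd74 (-3.56) passed, as did 2 more fibroblast genes, both lower, Thy1 (-1.03) and Col1a2 (-0.54). Lyz2 was at the floor on all 12 arrays and Ptprc on 7. Of 14 cardiomyocyte genes 1 passed from time zero to conditioned 48 h, the atrial light chain Myl7 (-1.70 ± 0.31, adjusted p = 0.00487), and 0 between media; without the 3 arrays 3 of the 14 passed as lower between media, Myl7 (-0.83, adjusted p = 0.00379), Ttn (-0.73, adjusted p = 0.00579) and Atp2a2 (-0.54, adjusted p = 0.0319). Between media over both times, 1 of the 14 cardiomyocyte genes lay above the median of all probes, and their median was -0.27. At 24 h 0 of the 14 did (median -0.43), and at 48 h 5 did (median -0.14). The size of these shifts depends on the scaling. Before it, the 24 h array medians were 71.2 and 70.3 in unconditioned and 97.6 and 93.9 in conditioned medium. The part of these shifts in the values of the KATP genes was not tested.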

How the data were processed

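Biotin-labelled RNA of 18 samples was read on 1-colour CodeLink arrays of 2 designs, per the labels. The deposited values are linear intensity; background correction, normalization and software are not given in the sources used here. The lowest deposited intensity is 1.0e-04.

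Members and gene lists were chosen with earlier results of these data known. The larger table held values for 33849 probes (16753 with 1 gene, 165 with several, 16931 with none), the smaller for 9906 (7290, 87 and 2529). Arrays were scaled to the median of array medians, floored at 0.05 of it and log2-transformed. Only probes whose mean exceeded the 30th percentile were tested (23694 and 6934). limma 3.58.1 in R 4.3.3 fitted 1 mean per group (eBayes with intensity trend, 7 residual degrees of freedom; 2 on the smaller table), with Benjamini-Hochberg adjustment over all probes tested. Designs were never pooled. The code was tested on simulated data.

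Named were all probes of the 4 genes, at most 4 list members by smallest p, and the 8 (Kcnj8) or 4 (other members) nearest genes by r. A gene was represented by its probe with the highest mean. Alternatives were quantile, cyclic loess and 75th percentile scaling, the level filter dropped or raised to the 50th percentile, a higher floor (0.2 of the median), a pseudocount (0.5 of it), no trend, array weights, only the groups compared, without the 3 arrays that stood apart, and each array left out. Promoter sequences came from RefSeq (GRCr8) and held 2 of the 4 genes, Kcnj8 and Abcc9. matplotlib 3.10.9 (Python 3.11.15) drew the figures.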

Additional observations from a re-analysis of the deposited data

How the results depend on the processing

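No paired analysis was possible because the labels carry no replicate numbers; those used here follow the order of the samples. Of the 5 probes of Abcc9, Kcnj11 and Abcc8, 2 passed at conditioned 24 h against time zero. That count was 5 with quantile, cyclic loess or array weights, 4 with 75th percentile scaling or without the 3 arrays that stood apart, 1 with no filter or only the groups compared, and 0 with no trend. With single arrays left out it ran from 0 to 3. At conditioned 48 h, where 4 passed, it was 5 with quantile, cyclic loess, 75th percentile scaling, array weights or without the 3 arrays, 3 with a pseudocount, 1 with no filter or no trend, 2 with only the groups compared, and 0 to 4 with single arrays left out. At unconditioned 48 h it was 2 (both Kcnj11, lower) with quantile, cyclic loess or 75th percentile scaling, against 0. Between times in conditioned medium Abcc9 probe 115012 and Kcnj11 probe 25048 passed with array weights or with only the groups compared, against 0 of the 5. The cause was not tested.

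Over all probes, conditioned 48 h had 1532 calls (1278 higher, 254 lower), against 948 with no filter, 3085 with quantile (1872 and 1213), 4022 with cyclic loess (2186 and 1836), 3003 with 75th percentile scaling (1862 and 1141), 4899 with array weights, 1007 with only the groups compared and 4106 without the 3 arrays. Conditioned 24 h had 751 (609 and 142), against 386 with no filter, 1997 with quantile (1243 and 754), 2639 with cyclic loess (1461 and 1178), 1920 with 75th percentile scaling (1219 and 701), 3114 with array weights, 473 with no trend and 2329 without the 3 arrays. Unconditioned 48 h had 686 (480 and 206), against 2343 with quantile (1222 and 1121), 2993 with cyclic loess (1516 and 1477), 2106 with 75th percentile scaling (1133 and 973), 315 with no filter, 392 with array weights, 165 with only the groups compared and 1617 without the 3 arrays. Unconditioned 24 h had 193 (175 and 18), against 543 with quantile (432 and 111), 779 with cyclic loess (560 and 219), 482 with 75th percentile scaling, 64 with no filter, 371 with array weights, 91 with no trend and 639 without the 3 arrays. Without the 3 arrays, and with single arrays left out, a group left with 1 array is assumed to vary like the others. Between times, calls rose from 1 to 1471 with array weights and 1425 with only the groups compared in conditioned medium, and from 0 to 127 with only the groups compared in unconditioned medium; the difference between medium effects had 0, and 17 without the 3 arrays.

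For Kcnj8, the difference between media on the larger design (5.02) was 2.55 with a pseudocount and 4.20 to 5.82 with single arrays left out. On the smaller design (4.61) it passed with no filter (4.37, adjusted p = 0.0356). With a floor of 0.2 (2.84) and a pseudocount (1.84) the probe was above the filter, although the 4 other arrays had it at percentiles 16.5 to 22.5, so no test is read there. It ran from 4.52 to 4.71 with single arrays left out.

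Some changes turned in sign, most of them near 0, and none of those outside Kcnj8 passed the test. For Abcc9 probe 229010 at unconditioned 24 h the values were -0.12 with quantile, -0.11 with cyclic loess, -0.049 with a filter at the 50th percentile, -0.15 with array weights and -0.23 without the 3 arrays, and at unconditioned 48 h -0.089 with array weights and -0.022 without the 3 arrays. For Abcc9 probe 115012 they were -0.0046 at unconditioned 24 h with quantile, and -0.027 between times in unconditioned medium with no filter. Abcc8 between times in conditioned medium was -0.0016 with quantile, -0.0050 with no filter and -8.9e-04 with a floor of 0.2. Kcnj11 probe 25048 was 0.014 at unconditioned 24 h with no filter, and its medium effects differed between times by -0.0015 with cyclic loess and -0.027 without the 3 arrays; for probe 313022 that was -0.020 without the 3 arrays. Kcnj8 probe 238094 between times in unconditioned medium, not near 0 with all arrays (1.30 ± 1.09), was -0.33 without the 3 arrays.

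With single arrays left out, signs turned in these ranges: Abcc8 between times in conditioned medium, -0.19 to 0.18; Abcc9 probe 115012 between times in unconditioned medium, -0.046 to 0.14, and at unconditioned 24 h, -0.0032 to 0.20; Abcc9 probe 229010 between times in unconditioned medium, -0.10 to 0.28, at unconditioned 24 h, -0.20 to 0.19, at unconditioned 48 h, -0.070 to 0.22, and in the difference between medium effects, -0.049 to 0.32. For Kcnj11 the ranges were -0.23 to 0.30 (probe 25048) and -0.042 to 0.44 (probe 313022) in the difference between medium effects, and -0.34 to 0.21 at unconditioned 24 h (probe 25048). Kcnj8 between times in unconditioned medium ran from -0.15 to 1.67 (probe 144022) and from -0.33 to 2.94 (probe 238094). Near the floor, on which 17.0% of values of the larger and 17.7% of the smaller table lie, low levels have no order.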
